A study of Homo sapiens with 4 samples.

Results

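KLF2 and KLF10 are Krüppel-like factors, and the 2 genes were followed here in the human neuroblastoma cell line BE(2)C after depletion of SSRP1. They were picked by name among 14812 genes named by the platform annotation, with 1 probe set each, because of how they differed between SSRP1 siRNA and control siRNA. Their own difference between the groups is therefore given as a description, without a test. SSRP1 is a subunit of the histone chaperone FACT, which opens and rebuilds nucleosomes as polymerases pass.

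The control group was transfected with non-targeting siRNA and the other group with siRNA against SSRP1, both with the same cationic lipid, and the labels name 1 SSRP1 siRNA reagent. Each group held 2 samples with 1 whole-transcript array each, which makes 4 arrays, and total RNA was taken 72 hours after transfection. Nothing in the labels says that replicates came from separate cultures, so the spread and the p-values below cover these samples, which may be technical replicates. All values are log2 expression values, on which a difference of 1 is a 2-fold change, and a difference is SSRP1 siRNA minus control.

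Krüppel-like factors are transcription factors that bind GC-rich and CACCC sequences through zinc fingers at their C-terminus, a fold they share with the SP factors. KLF2 is best known from vessel walls, where laminar flow switches it on through the kinase MEKK3 (gene MAP3K3), the kinases MEK5 and ERK5 and the MEF2 factors, and from T cells, where it keeps cells quiescent. KLF10, also called TIEG1, is an early response gene of transforming growth factor beta (TGF-beta) that recruits the SIN3A corepressor, and in many tissues it follows the circadian clock.

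The KLF2 promoter is shown because the route from MEKK3 ends at a MEF2 site, and the genes of that route are described below. The stretch holds the 250 bases before the annotated start of KLF2 (RefSeq, GRCh38.p14, chr19:16324576-16324825, plus strand). It lies upstream of the gene, outside its exons, and capitals mark the match to the MEF2 consensus.
KLF2: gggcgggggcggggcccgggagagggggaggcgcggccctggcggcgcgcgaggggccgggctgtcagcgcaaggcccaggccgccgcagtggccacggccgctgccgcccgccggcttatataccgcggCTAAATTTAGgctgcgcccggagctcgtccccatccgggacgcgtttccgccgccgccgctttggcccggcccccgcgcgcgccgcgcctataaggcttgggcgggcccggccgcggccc
The match begins 120 and ends 111 bases before the start, in a stretch that is 80% G or C, where the median promoter in the table is 58%. Over windows from 250 bases before to 50 bases after a start, searched on both strands, 2.99% of 35116 promoters held a match to the MEF2 consensus. Of 22 KLF and SP genes with a promoter in the table, KLF2 and KLF12 held one. KLF10 had no promoter in the table, so none was searched for it. For comparison, 30 bases around the KLF12 match follow, with the match again in capitals (chr13:74027059-74027088, minus strand).
KLF12: ttattctactCTATTTTTAAgagaaacact
The GC box GGGCGG, on either strand, occurs 6 times in the KLF2 window, and 45.0% of all windows hold at least 1. A TATA-like TATAAG begins 31 bases before the start, and 5.59% of windows hold these letters on either strand. Neither CACCC, which is in 59.9% of windows, nor the FOXO core GTAAACA, which is in 3.42%, occurs in the KLF2 window on either strand. These are matches of letters in a sequence, and no binding was measured.

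KLF2 was brighter on both SSRP1 siRNA arrays. It read 5.89 and 5.96 with control siRNA and 7.54 and 7.56 with SSRP1 siRNA. The groups lay 1.58 apart at their nearest values, against a range of 0.07 within the controls and 0.02 within the SSRP1 siRNA arrays. The means were 5.93 ± 0.05 (SD, n = 2) and 7.55 ± 0.01 (SD, n = 2), a log2 difference of 1.62 ± 0.10 (SE), or 3.07-fold. Among all 14812 genes this was rank 6 from the highest difference.

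KLF10 differed in the same direction by a smaller amount. It read 7.62 and 7.49 with control siRNA and 7.97 and 8.04 with SSRP1 siRNA, so the groups did not overlap, as for 44.3% of all genes, and lay 0.35 apart at their nearest values. That gap compares with a range of 0.13 within the controls and 0.07 within the SSRP1 siRNA arrays. The means were 7.55 ± 0.09 (SD, n = 2) and 8.01 ± 0.05 (SD, n = 2), a log2 difference of 0.45 ± 0.11 (SE), or 1.37-fold, at rank 416 from the highest. In bulk RNA, a change in every cell and a change in some of the cells cannot be told apart for either gene. Leaving out each array in turn gave a KLF2 difference between 1.59 and 1.65 and a KLF10 difference between 0.39 and 0.52.

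**Figure D1:**
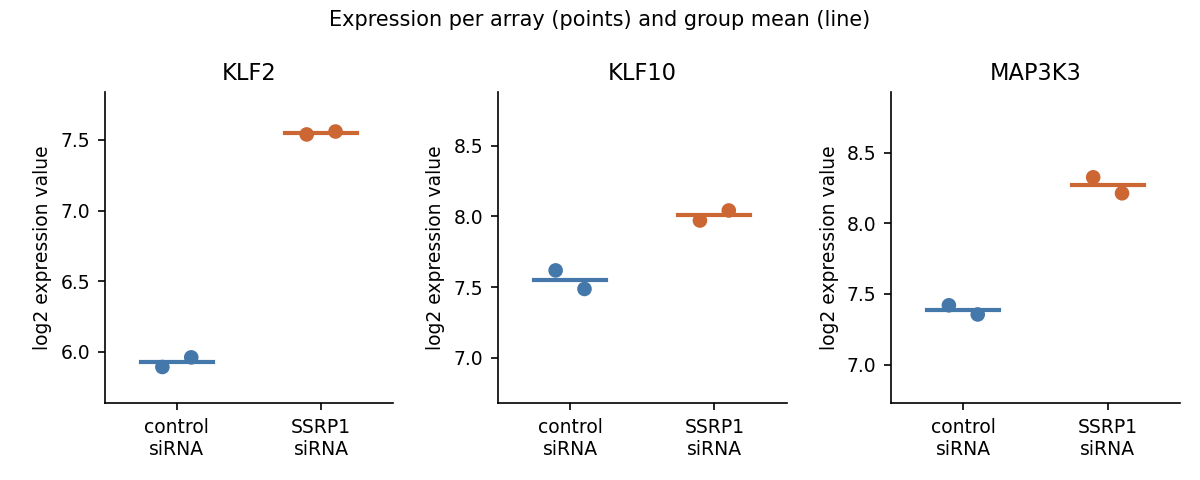
Log2 expression values of KLF2, KLF10 and MAP3K3 on each of the 4 arrays (points, blue for control siRNA and orange for SSRP1 siRNA) with the group mean of 2 arrays (line), on axes of equal height and different level. In all 3 genes both SSRP1 siRNA arrays lie above both control arrays, by 1.58 at the nearest values for KLF2 and 0.35 for KLF10.

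As a check of the samples, SSRP1 itself read 9.05 and 9.23 on the control arrays and 7.42 and 6.97 with its siRNA, which left 26.0% of the control level (limma adjusted p = 0.0479). That call was lost with the replicate number as a block (limma adjusted p = 0.0569), with robust variances (limma adjusted p = 0.0512) and without any 1 of the arrays (limma adjusted p = 0.241 to 0.599). SUPT16H, the other FACT subunit, had a difference of -0.07 ± 0.10 (SE). Arrays correlated at 0.990 to 0.993 (Pearson, over 46255 probe sets). Of 9 neuroblastoma markers measured, all lay above the median level of all genes (4.64), led by the neuronal gene STMN2 at 10.8 and 10.6 in the group means and the granin gene CHGA at 9.43 and 9.76. CHGA was the only one of the 9 with a positive difference, 8 lay below 0, and the median difference was -0.24, beside -0.01 over all genes. None of the 9 passed limma's test and 4 reached an unadjusted p under 0.05, 3 lower and 1 higher, a share of 44.4% beside 12.6% of all genes. DBH, which makes noradrenaline, had the smallest p, with a difference of -0.77 (limma adjusted p = 0.111).

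The other members of the family were set beside KLF2 and KLF10. Both were taken out of this family for their differences, which by itself lowers the counts among the rest, so these are given as a description. None of the 15 other KLF genes and none of the 9 SP genes passed limma's test at an adjusted p under 0.05, a threshold that 0.0945% of all genes passed. At an unadjusted p under 0.05 there were 2 of these 24 genes, or 8.33%, beside 12.6% of all genes. Their log2 differences ran from -0.52 to 0.20 with a median of -0.07, where the median of all genes was -0.01. The groups did not overlap for 10 of the 24 genes, 3 higher and 7 lower, a share of 41.7% beside the 44.3% over all genes.

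KLF11, the nearest relative of KLF10 and also a TGF-beta early gene, was the family member with the most negative difference. It read 5.23 and 5.67 on the control arrays and 4.99 and 4.87 with SSRP1 siRNA, a log2 difference of -0.52 ± 0.17 (SE, limma adjusted p = 0.330). The 2 control arrays spread over more than the gap to the SSRP1 siRNA arrays, and the difference ran from -0.74 to -0.30 when each array was left out. KLF1, the erythroid factor, read 4.62 and 4.60 against 4.29 and 4.17, a difference of -0.38 ± 0.10 (SE, limma adjusted p = 0.271). KLF7, which promotes axon growth in neurons, had a level well above that of the median gene, 9.86 and 9.69 against 9.58 and 9.39, and a difference of -0.29 ± 0.12 (SE, limma adjusted p = 0.409). In these 3 genes both SSRP1 siRNA arrays were below both control arrays, opposite to KLF2 and KLF10, and none passed the test.

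KLF6, an early response factor of injury, had the largest positive difference among the others, 0.20 ± 0.11 (SE, limma adjusted p = 0.511), from 7.50 and 7.64 to 7.81 and 7.74. KLF4, which is induced together with KLF2 by flow, had a difference of -0.11 with a 95% interval of -0.40 to 0.17, and its groups overlapped. KLF12, the other gene with a MEF2 match in its promoter window, had a difference of 0.12 with an interval of -0.15 to 0.38. KLF9, a target of steroid and thyroid hormone receptors, had -0.10, and KLF13 and KLF3 had 0.10 and 0.07. KLF5, KLF14, KLF15 and KLF16 had -0.15, 0.15, -0.28 and -0.03. The dim genes KLF8 and KLF17, at group means of 2.29 to 3.07, had 0.10 and -0.04, and dim values may be mostly background. For KLF15 the 2 SSRP1 siRNA arrays stood far apart, at 4.20 and 4.80.

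Among the SP factors 8 of 9 differences lay below 0, none past the test and none at an unadjusted p under 0.05. SP1, the widely expressed factor of GC boxes, read 7.81 and 7.63 on the control arrays and 7.60 and 7.38 with SSRP1 siRNA, a difference of -0.23 ± 0.13 (SE, limma adjusted p = 0.531). SP3 had a difference of -0.11, SP4 of 0.06 and SP2 of -0.001. The less bright SP5, SP6, SP7, SP8 and SP9, at group means of 2.69 to 4.77, ran from -0.21 to -0.02. After median centring 6 differences lay below 0, since SP2 and SP9 moved to 0.019 and 0.0015.

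**Figure D2:**
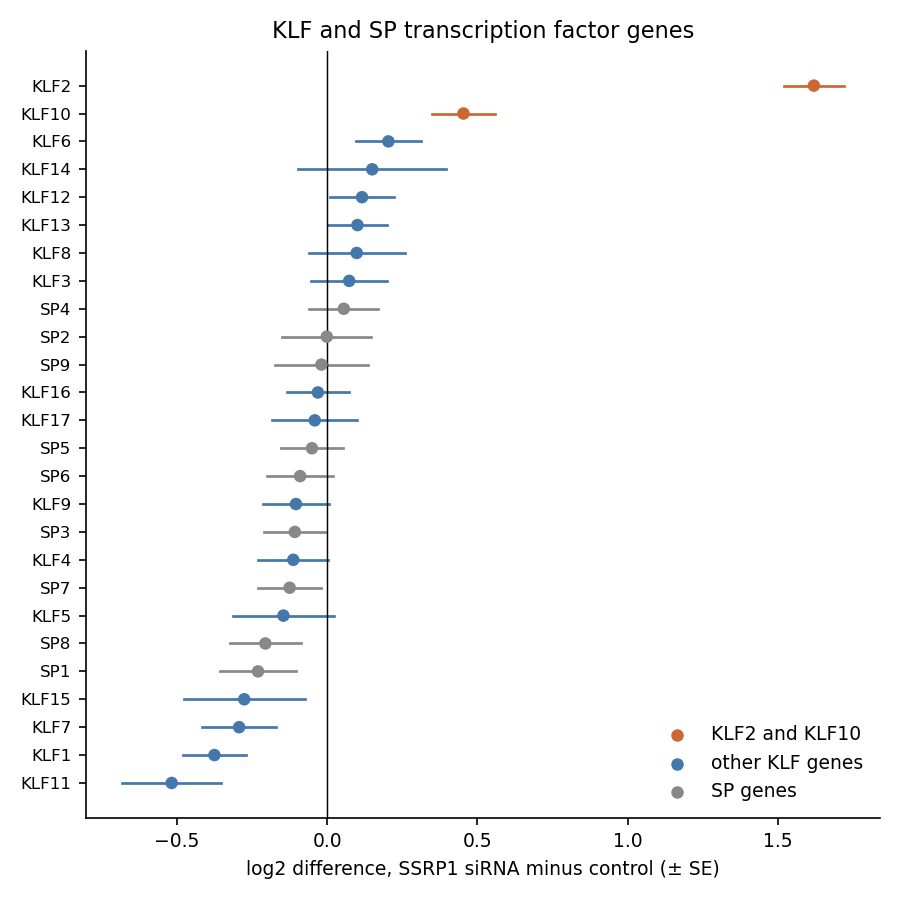
Log2 difference, SSRP1 siRNA minus control, of KLF2 and KLF10 (orange), the 15 other KLF genes (blue) and the 9 SP genes (grey), ordered by size, with bars of 1 standard error from the fit over all genes. KLF2 at 1.62 and KLF10 at 0.45, which were chosen for their differences, stand above the others, which run from -0.52 for KLF11 to 0.20 for KLF6.

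Genes that act on KLF2 were examined next, since the data hold the kinases and factors of its known inputs. MAP3K3, which encodes MEKK3, had the smallest p of the 20 measured genes. It read 7.42 and 7.36 with control siRNA and 8.32 and 8.21 with SSRP1 siRNA. The groups did not overlap, as for 44.3% of all genes. The log2 difference was 0.88 ± 0.10 (SE), and it did not pass limma's test (adjusted p = 0.0861). It passed with a variance trend (limma adjusted p = 0.00492) and among genes at or above the median level (limma adjusted p = 0.0118).

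The steps below MEKK3 had smaller differences. MAP2K5, which encodes MEK5, had a difference of -0.13 with a 95% interval of -0.38 to 0.13, and MAPK7, which encodes ERK5, had 0.04 with an interval of -0.23 to 0.31. The MEF2 genes MEF2A and MEF2D had differences of 0.17 and -0.30, and MEF2C was dim at 2.28 and 2.22. MAP3K2, which encodes the related kinase MEKK2, had 0.19. HEG1, the surface receptor of the CCM complex that holds MEKK3 in check, had 0.41 with groups that overlapped, ran from 0.15 to 0.67 when each array was left out, and was chosen after its values were seen. The other CCM genes measured, CCM2 and PDCD10, had 0.15 and 0.08.

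EZH2, the methyltransferase that silences KLF2 in several tumours, had a difference of 0.29 ± 0.10 (SE, limma adjusted p = 0.357). SMURF1, a ubiquitin ligase that degrades KLF2 protein, had 0.28 ± 0.10 (SE, limma adjusted p = 0.362). FOXO1, which switches KLF2 on in lymphocytes, had -0.10, and the flow-sensing channel PIEZO1 had 0.20. Of the 20 genes none passed the test. MAP3K3, HDAC7 (0.26), EZH2 and SMURF1 reached an unadjusted p under 0.05 in limma, all with positive differences. These 4 genes were a share of 20%, beside 12.6% of all genes in either direction and 6.56% higher. The median difference over the 20 genes was 0.11, beside -0.01 over all genes. The list pools genes that act for KLF2 with genes that act against it, EZH2 and SMURF1 among them. Its median therefore gives no direction of input to KLF2. A further 3 genes of the list were not analysed here.

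Genes known to respond to KLF2 in vessel walls and lymphocytes were split by the direction of that response. Of 10 measured genes that KLF2 induces there, none passed the test and 2 reached an unadjusted p under 0.05 in limma, a share of 20% beside 12.6% of all genes. Of the differences, 5 lay above 0 and 5 below, with a median of -0.01. S1PR1, the receptor that lets T cells leave lymph nodes, read 5.21 and 4.58 on the control arrays and 5.52 on both SSRP1 siRNA arrays, a difference of 0.63 ± 0.21 (SE, limma adjusted p = 0.341). Leaving out control replicate 2 brought it to 0.31, and leaving out control replicate 1 to 0.94. PLPP3, a lipid phosphatase, was dim at 2.66 and 2.13 and had a difference of -0.53 (limma adjusted p = 0.279), or -0.34 without control replicate 2. The water channel AQP1 read 5.83 and 5.27 against 5.88 and 5.93, a difference of 0.35 (limma adjusted p = 0.526). With control replicate 2 left out it was 0.07, and with control replicate 1 left out 0.63. The endothelial genes best known as KLF2 targets, NOS3 and THBD, had differences of 0.09 and -0.15, with groups that overlapped. The median of this list was -0.16 without control replicate 1 and 0.02 without SSRP1 siRNA replicate 1.

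Of 8 measured genes that KLF2 represses in vessel walls, 1 rose and none fell. ANGPT2, a secreted ligand that destabilises vessels, read 6.81 with control siRNA in both replicates and 8.05 and 8.24 with SSRP1 siRNA. It rose by 1.34 ± 0.11 (SE, limma adjusted p = 0.0427), in a test that 0.081% of all genes passed upward. Its direction is opposite to the response to KLF2 in endothelium. The call was lost with the replicate number as a block (limma adjusted p = 0.0568) and without any 1 of the arrays (limma adjusted p = 0.295 to 0.599, on 1 residual degree of freedom). ACE, the angiotensin-converting enzyme, read 8.96 and 8.84 against 9.40 and 9.36, a difference of 0.48 (limma adjusted p = 0.202). EDN1, which encodes endothelin 1, had a difference of 0.55 (limma adjusted p = 0.357), from 4.14 and 3.94 to 4.85 and 4.31, and 0.28 without SSRP1 siRNA replicate 1. ACE and EDN1 were chosen after their values were seen.

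The median over these 8 genes was 0.47, and 6 of the 8 were dimmer than the median gene. SELE and CCL2 were dim on 3 arrays and higher on SSRP1 siRNA replicate 1, at 3.58 and 4.15, than on replicate 2, at 2.83 and 3.16. Without SSRP1 siRNA replicate 1 the median was 0.16. Endothelial markers were set beside these genes, since several of them are vessel genes. Of 6 measured endothelial markers none passed the test and 1 reached an unadjusted p under 0.05 in limma, a share of 16.7% beside 12.6% of all genes. A further 4 genes of the list were not analysed here. Of the 6, 5 lay below the median level of all genes, with VWF at 3.17 and 3.12 and EMCN at 1.82 and 1.87. The differences of 4 lay above 0 and of 2 below, with a median of 0.13. TIE1 and CD34 had 0.22 and 0.39, and VWF and EMCN had -0.06 and 0.05. The groups did not overlap for 3 of the 6, all higher, a share of 50% beside 44.3% over all genes. The mean log2 level over the 6 was 3.56 and 3.61 with control siRNA and 3.99 and 3.69 with SSRP1 siRNA. ESAM, a junction protein, was the brightest, at 5.41 and 5.33 against 6.94 and 5.97 (limma adjusted p = 0.278), again highest on SSRP1 siRNA replicate 1. Its difference was 1.08, and 0.60 without that array, and CLDN5 had a difference of -0.14. For KLF2, replicate 1 and replicate 2 of SSRP1 siRNA differed by 0.02. The part of these markers in the differences, that of KLF2 included, was not tested.

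KLF10 was examined with the genes of TGF-beta signalling, its best known inducer. Of 14 measured genes for ligands, receptors, SMAD proteins and regulators, none passed the test, and 4 reached an unadjusted p under 0.05, all with positive differences. That was a share of 28.6%, beside 12.6% of all genes in either direction and 6.56% higher. A further 10 genes of this list, the TGF-beta ligands and main receptors among them, were not analysed here. EGR1, an early growth response factor that can activate KLF10, had the smallest p. It read 7.15 and 7.20 with control siRNA and 8.27 and 8.04 with SSRP1 siRNA, a difference of 0.98 ± 0.12 (SE, limma adjusted p = 0.0893). With a variance trend and among genes at or above the median level its limma adjusted p was 0.00681 and 0.0132.

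The SMAD genes that carry the signal had smaller differences. SMAD2 had a difference of 0.22, SMAD3 of 0.11 and SMAD4 of 0.02, with 95% intervals that all held 0. SMAD7, the feedback inhibitor that KLF10 represses, read 4.49 and 4.71 on the control arrays and 4.94 and 5.45 with SSRP1 siRNA. Its difference was 0.60 ± 0.19 (SE, limma adjusted p = 0.327), and it ran from 0.34 to 0.85 when each array was left out. SIAH1, a ubiquitin ligase that degrades KLF10 protein, had -0.22, and ENG, a TGF-beta co-receptor, had 0.28. The median over the 14 genes was 0.06, and it ran from 0.0016 without control replicate 2 to 0.10 without SSRP1 siRNA replicate 2.

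Genes induced early by TGF-beta gave values in both directions. Of 8 measured genes none passed the test, and 5 reached an unadjusted p under 0.05, 4 with positive and 1 with a negative difference, a share of 62.5% beside 12.6% of all genes (6.56% higher and 6.03% lower). BAMBI, a decoy receptor of the pathway, read 9.48 and 9.15 with control siRNA and 10.24 and 10.19 with SSRP1 siRNA. Its difference was 0.90 ± 0.14 (SE, limma adjusted p = 0.117), and the limma adjusted p was 0.0125 with a variance trend and 0.0233 among genes at or above the median level. LTBP2, a matrix protein of the latent TGF-beta binding family, had 0.53 (limma adjusted p = 0.283), or 0.34 without SSRP1 siRNA replicate 2, and JUNB, an AP-1 factor, had 0.29. CCN2, a classical TGF-beta target, was dim at 2.77 and 2.41 with a difference of -0.36, and KLF11 was the gene with a negative difference at an unadjusted p under 0.05. The median was 0.22, and 9 more genes of the list were not analysed here. Some genes count in several lists, so the shares given for the lists are not independent. SMAD7 was among the 4 genes here and among the 4 TGF-beta inputs above, and KLF11 was also counted in the family. SMURF1 was counted among the inputs to KLF2 and among the TGF-beta inputs.

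The cofactors through which these factors act on chromatin were also measured. Of 11 genes none passed the test, and 1 reached an unadjusted p under 0.05, a share of 9.09% that is near the 12.6% of all genes. That was KDM5B, a histone demethylase that binds KLF10, at 6.19 and 5.85 against 6.44 and 6.58, a difference of 0.49 ± 0.15 (SE, limma adjusted p = 0.298), or 0.32 without control replicate 2. SIN3A and SIN3B, the corepressors bound by KLF10, had differences of -0.11 and 0.04, and the deacetylase genes HDAC1, HDAC2 and HDAC3 had -0.01, -0.01 and 0.21. The acetyltransferase genes EP300, CREBBP and KAT2B had 0.06, -0.02 and 0.22, and CTBP1 and CTBP2, corepressors of KLF3, KLF8 and KLF12, had 0.12 and 0.01. The median was 0.04, and it was 0.15 without control replicate 1 and 0.02 without SSRP1 siRNA replicate 1.

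Clock genes were set beside KLF10 because its transcript follows the clock. Of 12 measured genes none passed the test, while 6 reached an unadjusted p under 0.05, all with negative differences. That was a share of 50%, beside 12.6% of all genes in either direction and 6.03% lower. DBP, a direct output of the clock, read 8.16 and 7.84 on the control arrays and 7.20 and 7.01 with SSRP1 siRNA, a difference of -0.89 ± 0.15 (SE, limma adjusted p = 0.131). PER1 read 7.13 and 6.95 against 6.50 and 6.20, a difference of -0.69 ± 0.14 (SE, limma adjusted p = 0.183). PER3, CRY2 and CRY1 had -0.48, -0.46 and -0.37. These period and cryptochrome genes encode inhibitors of the clock, and their groups did not overlap. That held for 10 of the 12 clock genes, 3 higher and 7 lower, a share of 83.3% beside 44.3% over all genes.

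The activators that those inhibitors hold back had differences of both signs. NPAS2, a relative of CLOCK, had -0.42, and CLOCK and BMAL1 had 0.25 and 0.37, with limma adjusted p of 0.451 and 0.480. The groups did not overlap in any of these genes. NPAS2 was dim at group means of 2.50 and 2.08, and BMAL1 at 3.37 and 3.74, and dim values may be mostly background. PER2, HLF, TEF and RORA had -0.14, -0.01, 0.05 and 0.01. The median over the 12 genes was -0.25, or -0.17 without SSRP1 siRNA replicate 1. With a variance trend DBP and PER1 passed the test (limma adjusted p = 0.0227 and 0.0485), and DBP passed among genes at or above the median level (limma adjusted p = 0.0283). All RNA was taken at 1 time, 72 hours after transfection, and the labels used here give no hour of day.

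**Figure D3:**
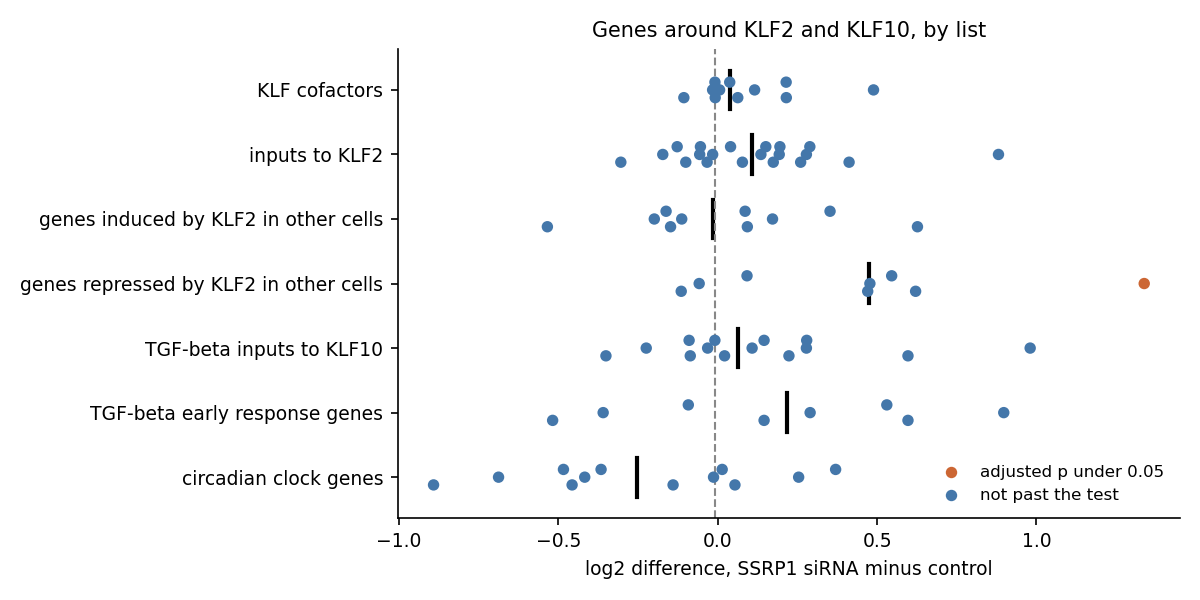
Log2 difference, SSRP1 siRNA minus control, of each measured gene (points) in 7 lists around KLF2 and KLF10, with the median of each list (black bar) and of all 14812 genes (dashed line, -0.01); the vertical offset of points has no meaning. ANGPT2 at 1.34, among genes repressed by KLF2 in other cells, is the 1 gene past the test (orange), and the list medians run from -0.25 for clock genes to 0.47.

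The genes whose 4 values were most like those of each factor were found by distance. Each gene's values were taken minus its own mean, and the Euclidean distance over the 4 arrays was computed to 7405 genes at or above the median level. The 5 nearest genes were chosen for this likeness, and no test is given of it. Nearest to KLF2 was NPY2R, a receptor for neuropeptide Y, at a distance of 0.09, where the median over genes was 1.63. It read 7.55 and 7.52 with control siRNA and 9.11 and 9.10 with SSRP1 siRNA, as tight within groups as KLF2. GPR83, which encodes a brain receptor, followed at 0.22, the ghrelin acyltransferase gene MBOAT4 at 0.28, the secreted glycoprotein gene CRISPLD2 at 0.29 and ANGPT2 at 0.31. Their log2 differences ran from 1.34 to 1.60. GPR83 read 4.07 and 3.85 with control siRNA, below the median level of 4.64, and 5.62 and 5.51 with SSRP1 siRNA. Its mean thus reached the median level, and this comparison, only through the SSRP1 siRNA arrays.

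KLF10 had closer neighbours, and its median distance over genes was also smaller than that of KLF2. SPRYD7 and the kinase gene MARK4 lay at a distance of 0.03 each, where the median over genes was 0.50. SPRY4, a feedback inhibitor of receptor tyrosine kinase signalling, also lay at 0.03, and it read 8.54 and 8.38 on the control arrays and 8.85 and 8.96 with SSRP1 siRNA. STN1, of the telomere-capping CST complex, and the homeobox gene IRX3 lay at 0.04 each. In each of these 5 genes, as in KLF10, control replicate 2 was the lowest array and SSRP1 siRNA replicate 2 the highest. KLF2 and KLF10 themselves lay 1.18 apart.

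**Figure D4:**
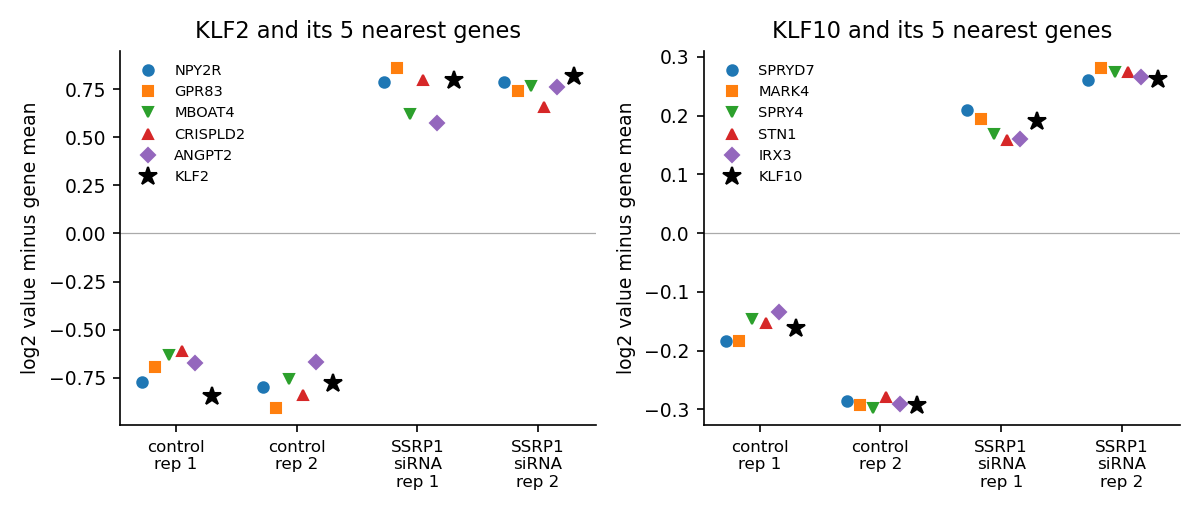
Log2 value minus the gene's mean on each of the 4 arrays for KLF2 (left) and KLF10 (right, black stars) and the 5 genes at the smallest Euclidean distance from each (coloured markers); the panels have different vertical scales. Neighbours of KLF2 lie between 0.09 and 0.31 from it and those of KLF10 between 0.03 and 0.04.

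Markers of other cells that could be in the cultures were low for blood, where CSF1R and CD2 were the brightest of 3 measured, with control means of 3.72 and 3.71 and differences of 0.04 and -0.27. The mean log2 level of these 3 markers was 3.44 and 3.54 in the controls, against 3.56 and 3.42 with SSRP1 siRNA. Of 3 fibroblast markers the matrix gene LUM read 7.64 and 6.91 against 8.59 and 8.35, a difference of 1.20 (limma adjusted p = 0.184). THY1 read 6.51 and 6.38 against 6.69 and 6.71, a difference of 0.25. Both lay above the median level of all genes (4.64), and DCN was dim at 2.62 and 2.57. The mean level of these 3 was 5.60 and 5.29 against 5.97 and 5.86. Of 4 Schwann cell markers SOX10 had a difference of 0.04 and S100B of 0.47 (limma adjusted p = 0.262), and the mean level was 4.29 and 4.14 against 4.41 and 4.28. A further 5 blood, 5 fibroblast and 2 Schwann cell markers were not analysed here. No measured marker of these 3 lists passed limma's test, and 2 of the 10 reached an unadjusted p under 0.05, beside 12.6% of all genes. Their part in the differences of KLF2 and KLF10 was not tested.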

How the data were processed

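The submitters' processing notes name RMA as the source of the log2 values that the authors deposited for each probe set. Which program ran RMA, and on which probe set definition, is not stated in those notes. The log2 scale was read from the values, 0.50 to 12.8. The platform annotation gave exactly 1 symbol for 15835 of the 46255 probe sets and several for 0, and left 30420 without a name here. Of several probe sets of a gene (651 genes) the one with the highest mean was used, and KLF2 and KLF10 had 1 each. Values near the low end may be background, and no detection values were used.

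limma (version 3.58.1, R 4.3.3; lmFit and eBayes, no trend, not robust, no block, no filter) was fitted over all 14812 genes on all 4 arrays, with 2 residual and 3.79 prior degrees of freedom. P-values are two-sided and Benjamini-Hochberg adjusted over all genes, and standard errors and 95% intervals are from this fit. The fit was also run on simulated data, with independent genes drawn from the variance model that limma assumes. Such data cannot show how the fit behaves with technical replicates or correlated genes, and no result is drawn from them. The number of arrays limits the precision.

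The genes, lists and tests were chosen with earlier results of these data known. All KLF and SP genes were named. In each other list the genes past the test were named, or else the 3 with the smallest p, and in marker lists the 2 brightest and the 1 with the smallest p. The 5 genes nearest to KLF2 and to KLF10 were also named. Other genes were named for their known role, after their values were seen.

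Alternatives were a replicate block, a variance trend, robust variances, quantile normalization, median centring, the mean of probe sets, all probe sets, genes at or above the median level, and each array left out. Motifs were searched in RefSeq promoters of GRCh38.p14.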

Additional observations from a re-analysis of the deposited data

How the results depend on the processing

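The KLF2 and KLF10 differences ran from 1.59 to 1.65 and from 0.39 to 0.52 over the alternatives run for them. The 14 genes past limma's test became 6 with the replicate block, 215 with a variance trend and 9 with robust variances. The number was 28 after quantile normalization and 23 after median centring. Among genes at or above the median level 179 passed, and over all probe sets 0, where 3854 had an unadjusted p under 0.05. Both of these fits changed the number of features tested and also the variances that limma estimates over them. Leaving out each array gave 0 genes every time, with 1200 to 1672 at an unadjusted p under 0.05, on 1 residual degree of freedom. The upward share was 12 of 14, 143 of 215, 19 of 28 and 17 of 23 in the first fit, the trend, quantile and centred fits. The cause of these shifts was not tested.

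The 1 call among genes repressed by KLF2 became 0 with the replicate block and 0 without each array, and 2 with a variance trend (ANGPT2 and ACE). The count of 0 became 1 for inputs to KLF2, 1 for TGF-beta inputs, 1 for TGF-beta early genes, 2 for clock genes, 2 for neuroblastoma markers and 1 for fibroblast markers with the trend. Among genes at or above the median level it became 1 for inputs to KLF2, 1 for TGF-beta inputs, 1 for TGF-beta early genes, 1 for clock genes and 1 for neuroblastoma markers. The other 136 of 153 list counts compared were the same. The list of blood markers had no member at or above the median level.

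With the replicate block SSRP1, ANGPT2, MBOAT4 and CRISPLD2 lost their call (limma adjusted p = 0.0511 to 0.0569), as did SSRP1 and CRISPLD2 with robust variances (limma adjusted p = 0.0512 each). Replicate 1 of both groups deviated together only weakly (r = 0.114 over 14812 genes, which are not independent), and with 2 pairs the samples share only a number. Leaving out 1 array moved the difference by over 1.5 times, or turned it, for 36 of 60 named genes not past the test for which this was run, and for 0 of 6 past it. Among genes not past the test, SP9 changed sign after quantile normalization (0.0056) and median centring (0.0015), and SP2 after median centring (0.019). Leaving out each array turned the sign of 14 such genes, whose differences ran from -0.41 to 0.13 for CLDN5, -0.042 to 0.13 for CSF1R, -0.18 to 0.48 for KLF14, -0.58 to 0.025 for KLF15, -0.091 to 0.029 for KLF16, -0.21 to 0.13 for KLF17, -0.047 to 0.19 for KLF3, -0.38 to 0.088 for KLF5, -0.11 to 0.31 for KLF8, -0.045 to 0.13 for SOX10, -0.18 to 0.17 for SP2, -0.048 to 0.16 for SP4, -0.11 to 0.006 for SP5 and -0.20 to 0.16 for SP9.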
